A study of Mus musculus with 2 samples.

Results

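The cells described here met a rule for pericytes and vascular smooth muscle cells of ulcerated mouse skin, together called mural cells. They were selected by their own RNA, in a 5' droplet single-cell RNA-seq series of 2 libraries, and 179 of 31252 kept cell barcodes met the rule. A barcode was kept with at least 200 detected genes and at most 15% mitochondrial UMIs, and it became a member when at least 3 of the 5 genes Rgs5, Notch3, Mcam, Cspg4 and Myh11 had a UMI (a unique molecular identifier, counted as 1 captured RNA molecule). Members could also hold at most 1 UMI each of Pdgfra, Pecam1 and Ptprc, and no UMI of Sox10, genes that mark fibroblasts, endothelium, leukocytes and Schwann cells. The levels of these 9 genes therefore chose the members and are given below as description only.

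One library came from lesional skin labelled as whole-body Has2 overexpression, and the other from lesional skin labelled wild type. Both labels give tape stripping of the skin at 40 to 50 strips a day over 15 days, as a stand-in for scratching in ulcerative dermatitis (UD), and they give no unstripped skin, age or sex. Each genotype is 1 library and no animal count is given, so the genotype cannot be told apart from the animal or the preparation of its library, and no test over replicates was possible. The promoter of the transgene is not named in the labels, and the labels also give a different RNA type for each library (poly(A) RNA for Has2 overexpression and total RNA for wild type) beside an identical protocol. The label of the stripping begins in mid-sentence, so a step before it may be missing. The descriptions number the libraries as replicates 2 (Has2 overexpression) and 1 (wild type), although their genotypes differ. Skin was dissociated with dispase, accutase and collagenase and captured with the GEM-X Single Cell 5' v3 kit. The libraries and their cells are called TG (labelled Has2 overexpression) and WT (labelled wild type) below, which names the labels only.

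Pericytes sit in the basement membrane of capillaries and venules, where they touch the endothelium, stabilise the vessel and take part in leukocyte exit. Vascular smooth muscle cells wrap arterioles and larger vessels and contract through actin, myosin and calponin. Both depend on PDGF-B from the endothelium through the receptor Pdgfrb and on Notch3 signalling, and both can respond to interleukin-1 and tumour necrosis factor with chemokines and interleukin-6. Hyaluronan, the glycosaminoglycan made by Has2, is part of the matrix around these cells.

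The TG library held 134917708 UMIs over 14622 barcodes and the WT library 143875454 UMIs over 16999 barcodes, with medians per kept barcode of 4485 UMIs in TG and 4348 UMIs in WT. Other gates serve for comparison, holding cells with at least 2 UMIs of Pdgfra (fibroblast gate), of Pecam1 beside a UMI of Cdh5 (endothelial gate) or of Ptprc (leukocyte gate). Their median UMIs were 28541 in TG and 29278 in WT for fibroblast-gate cells, 14051 in TG and 14887 in WT for endothelial-gate cells, and 4571 in TG and 4562 in WT for leukocyte-gate cells. Barcode sequences present in both libraries numbered 79, and 1 TG member and no WT member carried one of them. Has2 (ENSMUSG00000022367) in all other barcodes was 85.3 CPM in TG and 71.1 CPM in WT, a ratio of 1.20 (1.17 to 1.23), and it was 144 CPM in TG and 182 CPM in WT in fibroblast-gate cells, a ratio of 0.787 (0.761 to 0.814). Has2 was thus higher in the TG library summed over all other barcodes but lower in its fibroblast-gate cells. The sum mixes cell types whose shares differed, with a ratio of 1.30 for the share of fibroblast-gate cells. The part of these shares in the Has2 ratio was not tested. All intervals in parentheses are exact and at 95%, and they cover counting error only, not differences between cells or animals. A level is in CPM, the UMIs of a gene per 1000000 UMIs summed over the cells named.

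Members were more frequent in the TG library. They made up 137 of 14415 kept barcodes there, 0.95% (0.799% to 1.12%), and 42 of 16837 in the WT library, 0.249% (0.180% to 0.337%), a ratio of 3.81 (2.68 to 5.52). Counted against the vessels rather than against all cells, members numbered 137 beside 235 endothelial-gate cells in the TG library and 42 beside 224 in the WT library, a ratio of 3.11 (2.19 to 4.5). Against fibroblast-gate cells the counts were 137 beside 1463 in TG and 42 beside 1317 in WT, a ratio of 2.94 (2.06 to 4.25). The share of endothelial-gate cells had a ratio of 1.23 (1.02 to 1.48) and that of fibroblast-gate cells 1.30 (1.20 to 1.40). The genes of the rule stood higher in TG members, as given below, and the part of these levels in the share was not tested.

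The members were deeply read cells. Their median was 15521 UMIs and 3825 genes in TG members (range 1087 to 57151 UMIs) and 18583 UMIs and 4323 genes in WT members (range 3900 to 56520 UMIs). Mitochondrial UMIs had medians of 1.95% in TG and 1.97% in WT. Summed over members this gave 2151127 UMIs in TG and 871689 UMIs in WT, so a level of 10 to 20 CPM in WT members rests on about as many UMIs, often from few cells. For some genes the share of the UMIs held by a single cell is given.

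At the edge of the rule, 28 TG and 15 WT members carried exactly 3 of the 5 markers, with Acta2 at 1812 CPM in TG and 2745 CPM in WT. Just outside it, 47 TG and 26 WT barcodes met every other condition with 2 markers, and Acta2 was 246 CPM in TG and 540 CPM in WT. Barcodes with at least 3 markers that were kept out for more than 1 UMI of Pecam1 numbered 28 in TG and 21 in WT. Pdgfra kept out 12 in TG and 2 in WT, Ptprc 15 in TG and 5 in WT, and Sox10 2 in each.

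The 5 genes of the rule had higher summed levels in TG members. Their sum per cell had medians of 5291 CPM (279 to 24501) in TG and 1185 CPM (230 to 8246) in WT. Some members of both libraries thus met the rule on little marker RNA, and WT members carried less of it at the median. Rgs5 (ENSMUSG00000026678), a regulator of G-protein signalling and a classical pericyte marker, had 3871 CPM in TG members and 532 CPM in WT members. Its median per cell was 3265 CPM (0 to 21200) in TG cells and 225 CPM (0 to 6196) in WT cells, so the cells overlapped while their middles lay far apart. Myh11, the heavy chain of smooth muscle myosin, had 1115 CPM in TG and 349 CPM in WT, and Notch3, the mural Notch receptor, 502 CPM in TG and 190.4 CPM in WT. Mcam, an adhesion molecule, had 306 CPM in TG and 169 CPM in WT, and Cspg4, the NG2 proteoglycan, 187 CPM in TG and 134 CPM in WT. With at least 2 markers in the rule the ratio of shares was 3.16, and with at least 4 it was 4.72. Pdgfra had 3 UMIs in TG members and 0 in WT members, and Pecam1 had 9 in TG and 1 in WT.

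Markers that the rule did not use were checked next, as a description of the cells it chose. All 20 genes of the smooth muscle list were higher in members than in all other barcodes of the same library, and so were 11 pericyte genes of 12 in the TG and 10 of 12 in the WT library. Defining genes of other cell types were mostly low but not all absent. The fibroblast list summed to 5556 CPM in TG members and 2033 CPM in WT members, beside 28580 CPM in TG and 13452 CPM in WT fibroblast-gate cells. None of its 10 genes was at 0, and Col1a1 alone gave 4496 CPM of it in TG and 1706 CPM in WT. The leukocyte list summed to 689 CPM in TG and 198 CPM in WT members, beside 36455 CPM in TG and 63025 CPM in WT leukocyte-gate cells. Cd3e was at 0 in both, and Lyz2 had 20 UMIs in TG and 0 in WT. S100a8 and S100a9 of this list were not low in TG members. By the classes defined below, S100a8 had 216 CPM in pericyte-leaning and 238 CPM in smooth muscle-leaning TG cells, and S100a9 277 CPM and 325 CPM. In WT cells each had 25.2 CPM in pericyte-leaning and 26.2 CPM in smooth muscle-leaning cells. The endothelial list summed to 518 CPM in TG and 399 CPM in WT, most of it Flt1, Esam and Ecscr, while the defining Cdh5 had 3 UMIs in TG and 1 in WT. Keratinocyte genes summed to 79.0 CPM in TG and 14.9 CPM in WT, Schwann genes to 9.30 CPM in TG and 6.88 CPM in WT, skeletal muscle genes to 13.9 CPM in TG and 5.74 CPM in WT, and genes of the hair follicle dermal sheath to 88.3 CPM in TG and 17.2 CPM in WT. Acan of the dermal sheath list was not low, at 73.0 CPM in TG and 9.18 CPM in WT, 34.4 (TG) and 131 (WT) times above all other barcodes. It had 178 CPM in smooth muscle-leaning and 11.5 CPM in pericyte-leaning TG cells, and 1 cell held 87.5% of its 8 WT UMIs.

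**Figure D1:**
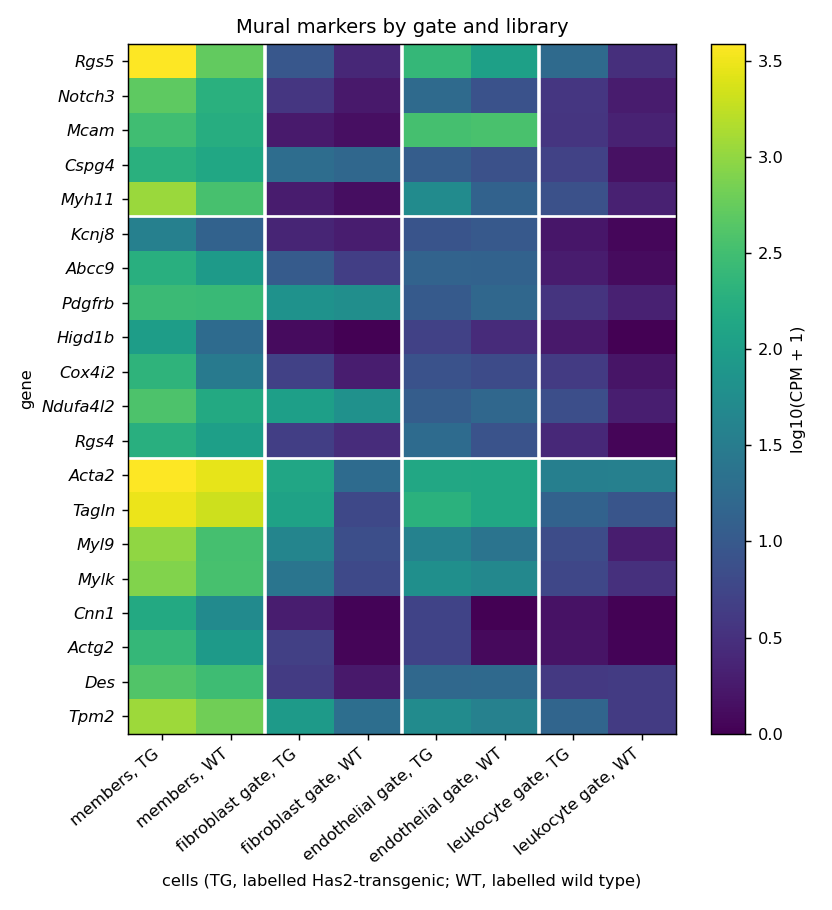
Level of mural genes, as log10(CPM + 1), in members and in 3 other gates, with the TG column left of the WT column in each pair. The top block holds the 5 genes of the rule, the middle block pericyte genes and the bottom block smooth muscle genes. Acta2 is bright in members of both libraries, at 3844 CPM in TG and 2890 CPM in WT, and Higd1b and Cnn1 are dark in the fibroblast and leukocyte gates.

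The 15 genes most enriched in members over all other barcodes in both libraries included many contractile and signalling genes of mural cells. Outside the rule they were H2-M9, Cnn1, Trpc6, Actg2, Gucy1b1, Ppp1r14a, Ano1, Synpo2, Mylk, Rgs4, Pcp4l1 and Kcnab1, beside Myh11, Notch3 and Rgs5 of the rule. Trpc6, a cation channel of vascular smooth muscle, had 179 CPM in TG and 125 CPM in WT. Gucy1b1, the beta subunit of the nitric oxide receptor guanylate cyclase, had 129 CPM in TG and 127 CPM in WT, and Ano1, a calcium-activated chloride channel, 93.9 CPM in TG and 135 CPM in WT. The class I-like histocompatibility gene H2-M9 had 228 CPM in TG and 163 CPM in WT. It stood 671 (TG) and 199 (WT) times above other barcodes, with 16.7% of its TG UMIs and 28.2% of its WT UMIs in 1 cell. It belongs to a family of like genes that may share reads, as do the actin genes Acta2 and Actg2. The direction of H2-M9 between the libraries turned round in the mean of per-cell CPM.

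Single members were then sorted by 2 sets of 6 genes outside the rule. Pericyte-leaning cells had UMIs of at least 2 of Kcnj8, Abcc9, Higd1b, Vtn, Cox4i2 and Steap4 and of fewer of Acta2, Cnn1, Lmod1, Synpo2, Actg2 and Pln, and smooth muscle-leaning cells the reverse. Pericyte-leaning cells were 56 of 137 TG members, 40.9% (32.6% to 49.6%), and 10 of 42 WT members, 23.8% (12.1% to 39.5%). Smooth muscle-leaning cells were 40.1% (31.9% to 48.9%) in TG and 40.5% (25.6% to 56.7%) in WT. The rest leaned to neither, 19.0% (12.8% to 26.6%) in TG and 35.7% (21.6% to 52.0%) in WT. With every cell thinned to 2000 UMIs, pericyte-leaning cells were 19.1% in TG and 14.3% in WT and smooth muscle-leaning cells 42.6% in TG and 26.2% in WT, so the shares depended on depth. Thinning left out 1 TG cell with fewer UMIs. The classes are ranges of a count, since 20 of the 56 TG and 3 of the 10 WT pericyte-leaning cells differed between both sets by only 1 gene.

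**Figure D2:**
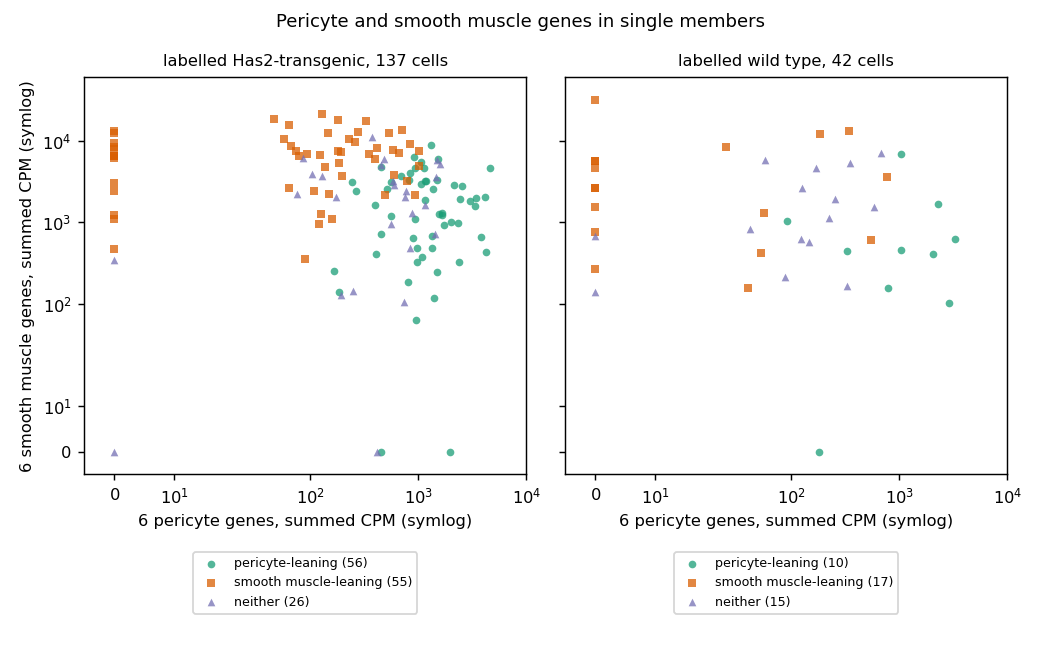
Each point is 1 member, with the summed CPM of 6 pericyte genes on the x axis and of 6 smooth muscle genes on the y axis, both on a symmetric log scale that keeps 0. The left panel holds the 137 TG members and the right panel the 42 WT members, and the 3 classes run into each other without a gap.

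Among the 18 lists of mural biology, signalling and stress, the pericyte list had the largest median ratio. All further ratios are TG over WT. Over 9140 genes with at least 20 UMIs in members of both libraries together, the median log2 ratio was -0.11, 43.6% of genes were above 0, 10.2% were at least 2-fold higher and 5.54% at least 2-fold lower in TG members. List medians are best read against that shift. Of 12 pericyte genes 11 were above 0 and 9 at least 2-fold higher, with none at least 2-fold lower and a median log2 ratio of 1.39, beside 0.58 in fibroblast-gate cells. Cox4i2, a cytochrome c oxidase subunit used in oxygen sensing, had 213 CPM in TG and 28.7 CPM in WT, a ratio of 7.42 (4.96 to 11.6). Higd1b, a small mitochondrial protein gene known as a pericyte marker, had 97.6 CPM in TG and 17.2 CPM in WT, a ratio of 5.67 (3.36 to 10.3). WT members held 25 and 15 UMIs of Cox4i2 and Higd1b. In these members 1 cell gave 28.0% of the Cox4i2 UMIs and 33.3% of the Higd1b UMIs.

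Among genes with at least 100 UMIs over both libraries, the other pericyte genes differed less. The largest log2 ratio of the list, 3.80, belonged to a gene with fewer UMIs. Abcc9, the sulphonylurea receptor of the mural potassium channel, had 183 CPM in TG and 88.3 CPM in WT, a ratio of 2.07 (1.62 to 2.68), and Ndufa4l2, a mitochondrial gene induced in hypoxia, 379 CPM in TG and 150.3 CPM in WT, a ratio of 2.52 (2.09 to 3.06). By contrast the receptor Pdgfrb had 279 CPM in TG and 265 CPM in WT, a ratio of 1.05 (0.903 to 1.23), and the transcription factor gene Ebf1 642 CPM in TG and 658 CPM in WT, a ratio of 0.976 (0.885 to 1.08). Anpep, the peptidase CD13, had 55.8 CPM in TG and 17.2 CPM in WT, a ratio of 3.24 (1.89 to 5.97) on 15 WT UMIs, and Steap4, a metalloreductase, 94.4 CPM in TG and 32.1 CPM in WT, a ratio of 2.94 (1.97 to 4.53). Summed over all members, Pdgfrb and Ebf1 were thus near equal beside 9 list genes at least 2-fold higher. Among pericyte-leaning cells alone, which these genes helped to define, Cox4i2 was 391 CPM in TG and 101 CPM in WT and Higd1b 153 CPM in TG and 44.0 CPM in WT, with 16 and 7 UMIs in the WT cells. In the same cells the ratio was 1.05 (0.706 to 1.61) for Vtn, 1.13 (0.598 to 2.37) for Kcnj8 and 1.36 (0.972 to 1.96) for Abcc9, each with an interval that spans 1.

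Summed over all members, smooth muscle genes showed smaller ratios than pericyte genes at much higher levels. Of 20 genes 17 were above 0, 7 at least 2-fold higher and none at least 2-fold lower, with a median log2 ratio of 0.53. Within the classes the list's median was larger, at 0.93 in pericyte-leaning and 0.95 in smooth muscle-leaning members, so the pooled median does not describe each class. Acta2 (ENSMUSG00000035783), smooth muscle actin, had 3844 CPM in TG and 2890 CPM in WT, a ratio of 1.33 (1.27 to 1.39). Its median per cell was 2609 CPM (0 to 19173) in TG cells and 1103 CPM (0 to 26617) in WT cells, and a single WT cell gave 20.2% of the Acta2 UMIs there. In pericyte-leaning cells, which Acta2 helped to define, it had 2025 CPM in TG and 528 CPM in WT, a ratio of 3.83 (3.08 to 4.83). Smooth muscle-leaning cells had 6543 CPM in TG and 4904 CPM in WT. Tagln, the actin-binding transgelin, had 3025 CPM in TG and 2066 CPM in WT, a ratio of 1.46 (1.39 to 1.54), with 27.5% of the WT UMIs in 1 cell.

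Larger ratios were found for a light chain and a kinase of myosin. Myl9, the regulatory light chain of smooth muscle myosin, had 977 CPM in TG and 334 CPM in WT, a ratio of 2.93 (2.59 to 3.32), and Mylk, the kinase that phosphorylates it, 818 CPM in TG and 344 CPM in WT, a ratio of 2.38 (2.10 to 2.69). Itga8, an integrin subunit of contractile cells, had 45.1 CPM in TG and 13.8 CPM in WT, a ratio of 3.28 (1.79 to 6.56) on 12 WT UMIs, 75% of them in 1 cell. Calponin (Cnn1) had 148 CPM in TG and 50.5 CPM in WT, but 1 WT cell held 77.3% of its UMIs, and pericyte-leaning cells held 1 UMI of it in the TG library and 0 in the WT library. Cald1, the actin-binding caldesmon, had 2366 CPM in TG and 2507 CPM in WT, a ratio of 0.944 (0.897 to 0.993), and this direction turned round with scaling to the median gene. Smtn, smoothelin of contractile smooth muscle, had 61.4 CPM in TG and 88.3 CPM in WT, a ratio of 0.695 (0.521 to 0.932), and its log2 ratio was 0.37 with at least 2 markers in the rule.

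Fibroblast-gate cells carried a median log2 ratio of 1.44 for the same list, larger than in the members, from low levels. There Acta2 was 132 CPM in TG and 16.7 CPM in WT and Tagln 118 CPM in TG and 4.95 CPM in WT. Within each library the members' Acta2 stood 29.1 (TG) and 173 (WT) times above the fibroblast gate.

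Promoters of the smooth muscle genes were read for the CArG box, the site of serum response factor that drives many contractile genes. The box was searched in the 250 bases before each start in RefSeq's GRCm38.p6 table, as CC, then 6 letters of A or T, then GG, a form that reads the same on both strands. Of 21 genes looked up, 17 had a promoter in the table, 19 promoters in all, and Tagln, Actg2, Myocd and Myh11 had no entry. The exact box was in 1 of these 19, that of Myl9, and in 1.47% of all 32851 promoters. With 1 of the 6 middle letters free it was in 2 of 19, those of Myl9 and Acta2, and in 8.59% of all promoters. Acta2 and Myl9 are printed below because their promoters held a match, not for their level or ratio. Capitals mark each match of the freer form. The Acta2 window is chr19:34255374-34255623 on the minus strand, and the Myl9 window chr2:156775214-156775463 on the plus strand, both in GRCm38.p6, an older build than the GRCm39 that the counts were made on.
Acta2: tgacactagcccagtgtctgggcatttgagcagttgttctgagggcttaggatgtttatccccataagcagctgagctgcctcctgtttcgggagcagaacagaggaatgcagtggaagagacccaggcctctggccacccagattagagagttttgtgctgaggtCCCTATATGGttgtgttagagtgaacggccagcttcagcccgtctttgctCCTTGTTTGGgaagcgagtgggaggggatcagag
Myl9: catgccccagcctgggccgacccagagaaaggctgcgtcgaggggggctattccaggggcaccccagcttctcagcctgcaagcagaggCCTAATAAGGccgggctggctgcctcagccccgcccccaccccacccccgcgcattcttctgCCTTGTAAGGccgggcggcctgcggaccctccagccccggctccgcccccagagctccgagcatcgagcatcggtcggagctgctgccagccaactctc
In Myl9 the first match, the exact box, begins 161 bases before the start, and in Acta2 the first match begins 84 bases before it. A match describes letters and is no evidence of binding in these cells.

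Receptors and channels that set vessel tone differed unevenly. Of 20 genes measured 16 were above 0, 5 at least 2-fold higher and 1 at least 2-fold lower, with a median log2 ratio of 0.36. Adra2a, an alpha-2 adrenergic receptor, had 75.3 CPM in TG and 12.6 CPM in WT, a ratio of 5.97 (3.25 to 12.2), with 36.4% of the WT UMIs in 1 cell. Its TG UMIs lay mostly in pericyte-leaning cells, at 132 CPM in pericyte-leaning and 7.53 CPM in smooth muscle-leaning cells, and WT members had 11 UMIs in all. Gucy1a1, the alpha subunit that pairs with Gucy1b1 as nitric oxide receptor, had 163 CPM in TG and 48.2 CPM in WT, a ratio of 3.39 (2.45 to 4.78), whereas Gucy1b1 had 1.01, so the paired subunits had unlike ratios. Endothelin receptor Ednrb, among the most abundant of these receptors, had 862 CPM in TG and 936 CPM in WT, a ratio of 0.921 (0.847 to 1.0). The classes ran in opposite directions for Ednrb. Pericyte-leaning cells had 1119 CPM in TG and 1987 CPM in WT, a ratio of 0.563 (0.496 to 0.640). Smooth muscle-leaning cells had 499 CPM in TG and 323 CPM in WT. S1pr3, a receptor for sphingosine 1-phosphate, was lower at 261 CPM in TG and 426 CPM in WT, a ratio of 0.613 (0.536 to 0.701). Within the classes it differed less, at 300 CPM in TG and 409 CPM in WT pericyte-leaning cells. Smooth muscle-leaning cells had 251 CPM in TG and 265 CPM in WT. The remaining members leaned to neither, so the pooled S1pr3 ratio does not describe each class.

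PDGF and TGF-beta genes differed little as a list. Of 16 measured 10 were above 0, 1 was at least 2-fold higher and none 2-fold lower, with a median log2 ratio of 0.12. Tgfbr2, the type II TGF-beta receptor, had 44.6 CPM in TG and 19.5 CPM in WT, a ratio of 2.29 (1.36 to 4.09) on 17 WT UMIs, and Ltbp1, which stores latent TGF-beta in matrix, 128 CPM in TG and 76.9 CPM in WT, a ratio of 1.67 (1.27 to 2.21), although the mean of per-cell CPM gave Ltbp1 a log2 ratio of -0.06. The ligand Tgfb1 went the other way, at 123 CPM in TG and 201 CPM in WT, a ratio of 0.611 (0.503 to 0.744), and so did Pdgfa, a ligand for the fibroblast receptor, at 409 CPM in TG and 538 CPM in WT, a ratio of 0.759 (0.678 to 0.851).

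Notch genes gave a median log2 ratio of 0.83 over 8 measured, 7 above 0 and 3 at least 2-fold higher. Jag1, the Notch ligand made by mural cells and endothelium, had 141 CPM in TG and 79.2 CPM in WT, a ratio of 1.78 (1.37 to 2.35). Nrarp, a feedback target, had 73.0 CPM in TG and 40.2 CPM in WT, a ratio of 1.82 (1.25 to 2.70), and the target genes Heyl and Hes1 had 30.2 CPM in TG and 10.3 CPM in WT and 33.5 CPM in TG and 11.5 CPM in WT, on 9 WT UMIs of Heyl and 10 of Hes1. The receptors Notch1 and Notch2 had 70.2 CPM in TG and 61.9 CPM in WT, a ratio of 1.13 (0.825 to 1.58) and 101 CPM in TG and 120.5 CPM in WT, a ratio of 0.837 (0.660 to 1.07). The receptors had intervals that spanned 1, and Jag1 and Nrarp had intervals above it.

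Of 14 angiogenic genes 10 were above 0, 4 at least 2-fold higher and 2 at least 2-fold lower, with a median log2 ratio of 0.42. Thbs2, the anti-angiogenic thrombospondin-2, had 162 CPM in TG and 21.8 CPM in WT, a ratio of 7.44 (4.69 to 12.5), and Nrp1, a co-receptor of VEGF, 183 CPM in TG and 51.6 CPM in WT, a ratio of 3.54 (2.60 to 4.93). Vegfa, the main endothelial growth factor, was lower at 29.8 CPM in TG and 90.6 CPM in WT, a ratio of 0.328 (0.232 to 0.462) (29.1% of the WT UMIs in 1 cell), and it was lower as well in fibroblast-gate cells, at 144 CPM in TG and 321 CPM in WT. Angpt2, which loosens contacts between pericyte and endothelium, had 76.7 CPM in TG and 47.0 CPM in WT, a ratio of 1.63 (1.15 to 2.36). Chemokine gene Cxcl12 had 74.4 CPM in TG and 32.1 CPM in WT, with 50.0% of the WT UMIs in 1 cell.

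Genes of the basement membrane, the sheet that encloses pericytes, were all above 0. Of 16 measured 16 had a log2 ratio above 0 and 8 were at least 2-fold higher, with a median of 1.08, beside 0.50 in fibroblast-gate and 0.56 in endothelial-gate cells. Lama4, a laminin chain of vessel walls, had 263 CPM in TG and 48.2 CPM in WT, a ratio of 5.45 (3.98 to 7.65), and Lama2, another laminin chain, 101 CPM in TG and 20.6 CPM in WT, a ratio of 4.89 (3.02 to 8.4). Most Lama2 lay in pericyte-leaning cells, at 195 CPM in pericyte-leaning and 21.3 CPM in smooth muscle-leaning TG cells. The abundant chains differed less. Col4a1, collagen IV, had 3579 CPM in TG and 2261 CPM in WT, a ratio of 1.58 (1.51 to 1.66) and Sparc, a collagen-binding glycoprotein, 9214 CPM in TG and 5962 CPM in WT, a ratio of 1.55 (1.5 to 1.59). Endothelial-gate cells carried collagen IV at a like level, with Col4a1 at 3277 CPM in TG and 2148 CPM in WT. Laminin alpha-5 (Lama5) had the smallest ratio of the list, 169 CPM in TG and 143 CPM in WT, a ratio of 1.18 (0.960 to 1.46).

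Fibrillar and provisional matrix genes were mostly higher too, with a wider spread. Of 23 genes 21 were above 0, 11 at least 2-fold higher and 1 at least 2-fold lower, with a median log2 ratio of 0.85, beside 1.08 in fibroblast-gate cells. Fn1 (ENSMUSG00000026193), fibronectin of the provisional wound matrix, had 1218 CPM in TG and 167 CPM in WT, a ratio of 7.27 (6.16 to 8.65), with 28.1% of the WT UMIs in 1 cell. It was carried more by smooth muscle-leaning cells, at 706 CPM in pericyte-leaning and 2215 CPM in smooth muscle-leaning TG cells and 18.9 CPM in pericyte-leaning and 265 CPM in smooth muscle-leaning WT cells. Fibrillar collagen genes Col1a1 and Col3a1 had 4496 CPM in TG and 1706 CPM in WT members and 5330 CPM in TG and 2362 CPM in WT members, beside 16971 CPM in TG and 2841 CPM in WT and 20022 CPM in TG and 7871 CPM in WT fibroblast-gate cells. The median of the list was 0.46 after thinning to 2000 UMIs.

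Mfap5, a microfibril gene and fibroblast marker, had 100 UMIs in TG and 3 in WT, a ratio of 13.5 (4.49 to 66.6), but 1 TG cell gave 95% of them, and without that cell the log2 ratio was -0.18. The summed fibroblast list differed with these genes, at 5556 CPM in TG and 2033 CPM in WT, and its part in the matrix ratios was not tested. Leaving out members whose fibroblast UMIs exceeded their mural UMIs kept 125 TG and 41 WT cells and gave a matrix median of 0.66.

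Not all matrix genes were higher. Timp1 (ENSMUSG00000001131), an inhibitor of matrix metalloproteinases, had 1975 CPM in TG and 5488 CPM in WT, a ratio of 0.360 (0.345 to 0.375), with per-cell medians of 794 CPM in TG and 2561 CPM in WT. Tnc, tenascin-C of wound matrix, had 1897 CPM in TG and 2908 CPM in WT, a ratio of 0.652 (0.621 to 0.686). Both were also lower in the TG fibroblast gate, where Timp1 had 6520 CPM in TG and 9535 CPM in WT and Tnc 4521 CPM in TG and 5267 CPM in WT.

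Integrin and adhesion genes had a median log2 ratio of 0.52, with 14 of 18 above 0 and 6 at least 2-fold higher. Cdh11, a mesenchymal cadherin, had 80.4 CPM in TG and 20.6 CPM in WT, a ratio of 3.89 (2.39 to 6.73) on 18 WT UMIs, and Cdh13, T-cadherin, 93.4 CPM in TG and 40.2 CPM in WT, a ratio of 2.33 (1.62 to 3.43), whose log2 ratio was -0.33 with at least 2 markers in the rule. The fibronectin receptor subunit Itga5 was lower at 621 CPM in TG and 934 CPM in WT, a ratio of 0.665 (0.609 to 0.727), opposite to its ligand gene Fn1. Itgb1, the shared beta-1 subunit, had 1223 CPM in TG and 1058 CPM in WT, a ratio of 1.16 (1.07 to 1.25).

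**Figure D3:**
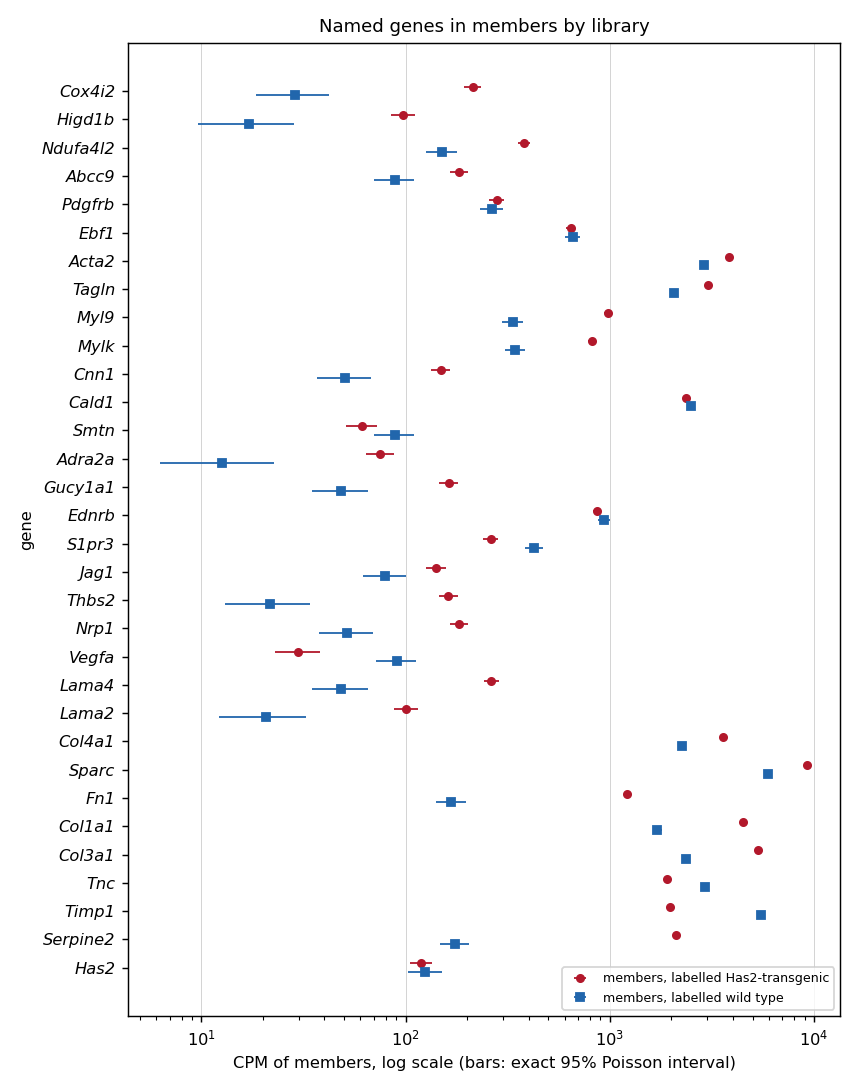
CPM of 32 genes in members on a log scale, TG (circles) drawn above WT (squares) for each gene, with bars for the exact 95% Poisson interval of the counts. Serpine2, Fn1 and Cox4i2 lie far apart between the libraries, Pdgfrb, Ebf1 and Has2 overlap, and Timp1, Tnc, S1pr3 and Vegfa lie lower in TG members.

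Cytokine and chemokine genes and fibrillar matrix genes had the highest summed levels of the lists. The 24 mediator genes summed to 32440 CPM in TG members and 33042 CPM in WT members. Cxcl1 (ENSMUSG00000029380), a neutrophil attractant, had 13761 CPM in TG and 13940 CPM in WT, a ratio of 0.987 (0.967 to 1.01). Cxcl1 per cell had medians of 12392 CPM (0 to 58156) in TG and 12862 CPM (0 to 39992) in WT, so the cells overlapped widely. Cells with a Cxcl1 UMI were 95.6% in TG and 95.2% in WT, beside 31.3% in TG and 26.2% in WT of leukocyte-gate cells. Members exceeded fibroblast-gate cells in both libraries, where Cxcl1 had 7606 CPM in TG and 10065 CPM in WT, and endothelial-gate cells by more, with 1812 CPM in TG and 1749 CPM in WT.

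Il6 (ENSMUSG00000025746), interleukin-6, also stood highest in members among the 4 gates. It had 3798 CPM in TG and 4744 CPM in WT, a ratio of 0.801 (0.771 to 0.831) in members, 967 CPM in TG and 2567 CPM in WT in fibroblast-gate cells and 662 CPM in TG and 906 CPM in WT in endothelial-gate cells. Members stood above fibroblast-gate cells by a factor of 3.93 (TG) and 1.85 (WT). Per cell Il6 had medians of 3136 CPM (0 to 16639) in TG and 4247 CPM (0 to 26591) in WT, with 10 TG and 3 WT cells at 0. Cells with an Il6 UMI were 92.7% in TG and 92.9% in WT, beside 3.98% in TG and 5.32% in WT of the less deeply read leukocyte-gate cells. In fibroblast-gate cells the ratio of Il6 was 0.377 (0.372 to 0.381). Its difference from the ratio in members was not tested.

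Neutrophil-attracting Cxcl5 was lower, at 1441 CPM in TG and 4385 CPM in WT, a ratio of 0.329 (0.313 to 0.345). Cxcl3, another such attractant, had 1244 CPM in TG and 2031 CPM in WT, a ratio of 0.613 (0.577 to 0.651). Cxcl5 was patchy, since 84 of 137 TG and 19 of 42 WT cells held none, and in WT cells the median was 733 CPM. Cxcl5 had 2042 CPM in pericyte-leaning and 457 CPM in smooth muscle-leaning TG cells, while in WT the order was the other way, at 3308 CPM in pericyte-leaning and 5230 CPM in smooth muscle-leaning cells. Cxcl2 was higher at 4627 CPM in TG and 2437 CPM in WT, a ratio of 1.90 (1.81 to 1.99), and leukocyte-gate cells held more of it, at 15484 CPM in TG and 15973 CPM in WT. Ccl2, which attracts monocytes, had 3775 CPM in TG and 2385 CPM in WT, a ratio of 1.58 (1.51 to 1.66), with 28.1% of the WT UMIs in 1 cell.

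Ccl19 (ENSMUSG00000071005), a ligand of Ccr7 that attracts dendritic and T cells, stood far above the other 3 gates in members. It had 410.0 CPM in TG and 56.2 CPM in WT, a ratio of 7.29 (5.47 to 9.94) in members, 3.39 CPM in TG and 4.61 CPM in WT in fibroblast-gate cells, 0.739 CPM in TG and 0.217 CPM in WT in endothelial-gate cells and 0.0795 CPM in TG and 0.235 CPM in WT in leukocyte-gate cells. In all other barcodes it had 1.93 CPM in TG and 2.10 CPM in WT, from 256 UMIs in TG and 300 in WT. Cells with a UMI were 26.3% in TG and 14.3% in WT of members, beside 0.0336% in TG and 0.0824% in WT of leukocyte-gate cells, with the lower median depth given above. Pericyte-leaning cells had 523 CPM in TG and 88.0 CPM in WT and smooth muscle-leaning cells 131 CPM in TG and 72.8 CPM in WT. One WT cell gave 51.0% of the UMIs, and a near-identical copy, Ccl19-ps2, listed at 245 CPM in TG and 31.0 CPM in WT with 37.0% of the WT UMIs in 1 cell, can split reads with it, so the level of either alone is uncertain. In all other barcodes Ccl19-ps2 had 8.46 CPM in TG and 8.22 CPM in WT.

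Of 23 mediators measured 15 were above 0, 8 at least 2-fold higher and 2 at least 2-fold lower, with a median log2 ratio of 0.66. Among the listed mediators named in the text, Cxcl1, Il6, Cxcl5, Cxcl3, Il11 and Csf3 had ratios below 1. Cxcl2, Ccl2, Ccl19, Il34, Cxcl10 and Ptgs2 had ratios above it. Thinned to 2000 UMIs, the median of the list was 0.02. The leukocyte list differed beside it, at 689 CPM in TG and 198 CPM in WT, and its part was not tested. Il34, a ligand of the myeloid receptor Csf1r, had 79.0 CPM in TG and 19.5 CPM in WT, a ratio of 4.05 (2.46 to 7.12), and Cxcl10, an interferon-induced T-cell attractant, 106 CPM in TG and 27.5 CPM in WT, a ratio of 3.87 (2.53 to 6.16), with 70.8% of the WT UMIs in 1 cell. Il11, of the interleukin-6 family, had 411 CPM in TG and 607 CPM in WT, a ratio of 0.678 (0.608 to 0.756). Ptgs2, the inducible cyclooxygenase, had 98.1 CPM in TG and 17.2 CPM in WT, a ratio of 5.70 (3.38 to 10.4) on 15 WT UMIs, 86.7% of them in 1 cell, and it lay well above both in fibroblast-gate cells at 751 CPM in TG and 1454 CPM in WT. Among smooth muscle-leaning cells alone the list's median was -0.01 and Ptgs2 ran the other way at 21.3 CPM in TG and 37.9 CPM in WT, and among pericyte-leaning cells the list's median was 0.96. Csf3, the granulocyte growth factor, had 156 CPM in TG and 198 CPM in WT, a ratio of 0.787 (0.653 to 0.951), which turned round without the cell with most of its UMIs in each library.

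**Figure D4:**
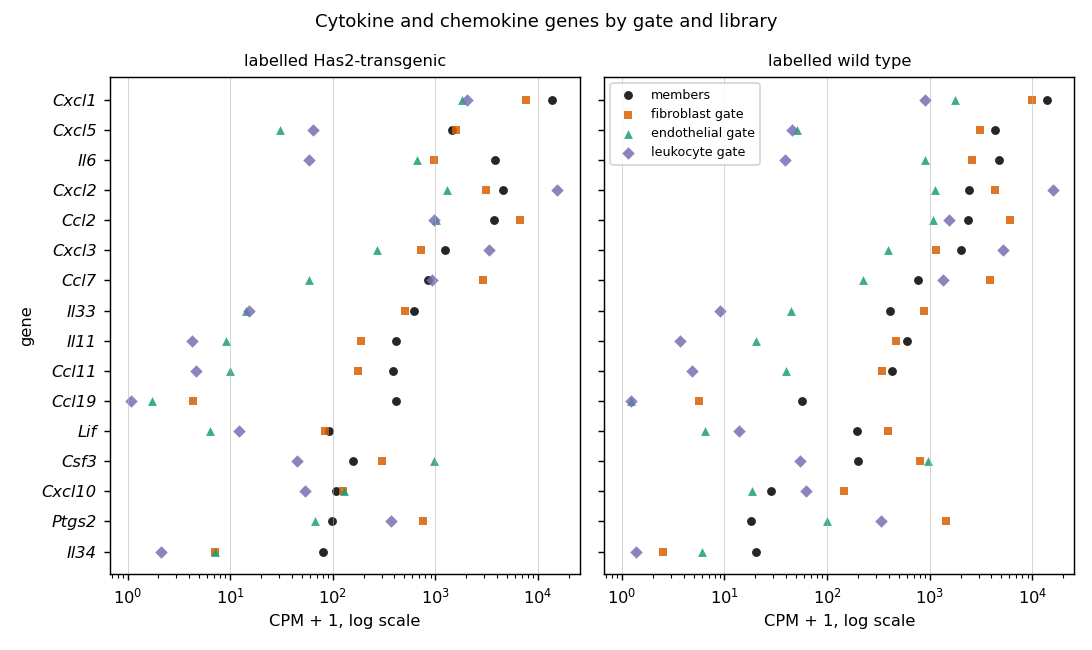
CPM + 1 on a log scale of 16 cytokine and chemokine genes in members, fibroblast, endothelial and leukocyte gates, with the TG library in the left panel and the WT library in the right panel. Members are rightmost for Cxcl1 and Il6 in both panels, and for Ccl19 they stand apart from the other 3 gates, at 410 CPM in TG and 56.2 CPM in WT.

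NF-kB feedback and cytokine receptor genes had a median log2 ratio of 0.37, with 16 of 19 above 0 and 1 at least 2-fold higher. Il1r1, the interleukin-1 receptor, had 942 CPM in TG and 640.1 CPM in WT, a ratio of 1.47 (1.34 to 1.62), and Il6st, the shared signalling chain for interleukin-6, 424 CPM in TG and 272 CPM in WT, a ratio of 1.56 (1.35 to 1.81). In fibroblast-gate cells both were lower in the TG library, at 369 CPM in TG and 592 CPM in WT and 203 CPM in TG and 283 CPM in WT. Nfkb2, an NF-kB subunit, had 139.9 CPM in TG and 84.9 CPM in WT, a ratio of 1.65 (1.27 to 2.16).

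Interferon response genes had a median log2 ratio of 0.99, with 13 of 14 above 0 and 8 at least 2-fold higher. The median was 0.08 in fibroblast-gate cells and 0.77 in endothelial-gate cells. Iigp1, an interferon-inducible GTPase, had 66.5 CPM in TG and 13.8 CPM in WT, a ratio of 4.83 (2.68 to 9.57) on 12 WT UMIs, 41.7% of them in 1 cell, and Psmb8, a subunit of the immunoproteasome, 45.1 CPM in TG and 18.4 CPM in WT, a ratio of 2.46 (1.44 to 4.47). B2m, the light chain of class I molecules, had 1434 CPM in TG and 805 CPM in WT, a ratio of 1.78 (1.64 to 1.94), and Isg15, a ubiquitin-like interferon target, 167 CPM in TG and 86.0 CPM in WT, a ratio of 1.95 (1.51 to 2.53), with 36.0% of the WT UMIs in 1 cell. Levels of most of these genes were low, and 7 of the 21 listed genes had too few UMIs to be measured.

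Hyaluronan genes mostly had log2 ratios above 0 with a small median, while the intervals of Has2 and Has1 spanned 1. Has2 had 119 CPM in TG and 125 CPM in WT, a ratio of 0.952 (0.758 to 1.20) in members, with 256 UMIs in TG and 109 in WT, and the interval of this ratio spans 1. Within TG members Has2 was 179 CPM in pericyte-leaning and 56.5 CPM in smooth muscle-leaning cells. Within WT members Has2 was 94.3 CPM in pericyte-leaning and 61.2 CPM in smooth muscle-leaning cells, on 15 and 21 UMIs. The remaining WT UMIs lay in members that leaned to neither, so the pooled ratio does not describe each class. Has1, which like Has2 makes hyaluronan, had 359.8 CPM in TG and 324 CPM in WT, a ratio of 1.11 (0.969 to 1.28), and the hyaluronan receptor Cd44 1050 CPM in TG and 1207 CPM in WT, a ratio of 0.870 (0.808 to 0.937). Of 17 genes measured 13 were above 0 and 4 at least 2-fold higher, with a median log2 ratio of 0.28. Intervals lay above 1 for 10 of the 17 and below 1 for 1, and the median was -0.01 after thinning to 2000 UMIs. Itih5, whose product binds hyaluronan, had 76.2 CPM in TG and 25.2 CPM in WT, a ratio of 3.02 (1.93 to 4.95), and the versican-cleaving proteases Adamts5 and Adamts4 50.7 CPM in TG and 19.5 CPM in WT, a ratio of 2.60 (1.55 to 4.62) (41.2% of the WT UMIs in 1 cell) and 971 CPM in TG and 529 CPM in WT, a ratio of 1.84 (1.66 to 2.04).

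Cell cycle genes were few in UMIs, with 10 of 16 above 0, 5 at least 2-fold higher, 1 at least 2-fold lower and a median log2 ratio of 0.30. Mki67, a marker of cycling cells, had 47.9 CPM in TG and 24.1 CPM in WT, but all of its 21 WT UMIs lay in 1 cell, and Top2a had 58.6 CPM in TG and 32.1 CPM in WT, with 85.7% in 1 cell. Pcna, a replication clamp, ran the other way at 138 CPM in TG and 184 CPM in WT, a ratio of 0.750 (0.616 to 0.914). Hypoxia and glycolysis genes had a median log2 ratio of -0.03 with 6 of 14 above 0 and 1 at least 2-fold higher, and Hif1a had 507 CPM in TG and 499 CPM in WT, a ratio of 1.02 (0.908 to 1.14). The largest differences among genes with at least 100 UMIs were Ndrg1 at 169 CPM in TG and 84.9 CPM in WT, a ratio of 1.99 (1.55 to 2.60) and the glycolytic gene Pgk1 at 221 CPM in TG and 315 CPM in WT, a ratio of 0.701 (0.603 to 0.817).

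Oxidative stress and metal genes had a median log2 ratio of 0.33, with 11 of 14 above 0 and 2 at least 2-fold higher. Hmox1, haem oxygenase 1, had 905 CPM in TG and 321 CPM in WT, a ratio of 2.82 (2.48 to 3.20), and Srxn1, sulfiredoxin, 141 CPM in TG and 63.1 CPM in WT, a ratio of 2.23 (1.67 to 3.03), while the metallothionein Mt2 was lower at 707 CPM in TG and 1145 CPM in WT, a ratio of 0.617 (0.569 to 0.669). Of the 21 measured transcription factor genes 17 were above 0 and 4 at least 2-fold higher, with a median of 0.39. Nr2f2, a venous regulator, had 114 CPM in TG and 58.5 CPM in WT, a ratio of 1.95 (1.43 to 2.69), and Mef2c, a regulator of muscle genes, 78.6 CPM in TG and 37.9 CPM in WT, a ratio of 2.08 (1.42 to 3.11), with a log2 ratio of -0.59 after thinning to 2000 UMIs.

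Genes that cell handling induces also differed. The list of 16 heat shock and immediate early genes summed to 9279 CPM in TG members and 6085 CPM in WT members, with 10 above 0, 5 at least 2-fold higher and a median log2 ratio of 0.67, beside 0.54 in fibroblast-gate and 0.82 in endothelial-gate cells. Hspb1, a small heat shock protein gene, had 1236 CPM in TG and 320.1 CPM in WT, a ratio of 3.86 (3.41 to 4.38), and the near-identical pair Hspa1a and Hspa1b 1116 CPM in TG and 299 CPM in WT and 911 CPM in TG and 243 CPM in WT, whose reads may be split between them. Fos had 684 CPM in TG and 298 CPM in WT, a ratio of 2.29 (2.01 to 2.63), and Ier3 was lower at 960.4 CPM in TG and 1445 CPM in WT, a ratio of 0.664 (0.619 to 0.713). None of these genes was at 0 in either library, and their part in the other ratios was not tested.

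Over all genes with at least 100 UMIs in all and, in the library where the gene was higher, at least 50 CPM and at least 0.5 times the level of all other barcodes, the 10 with the highest ratios included Hp, Mgp, Areg, Mfap2, Serpine2, Atp1b2, Ccl19-ps2, Igfbp5 and Acan. Acan belongs to the hair follicle dermal sheath list, and 1 cell held 87.5% of its 8 WT UMIs. Serpine2 (ENSMUSG00000026249), the protease inhibitor nexin-1, was the most abundant of those named, at 2100 CPM in TG and 174 CPM in WT, a ratio of 12.0 (10.2 to 14.3). It was 209 CPM in TG and 76.4 CPM in WT in fibroblast-gate cells and had 3118 CPM in pericyte-leaning and 1057 CPM in smooth muscle-leaning TG cells. Igfbp5, which binds insulin-like growth factors, had 664 CPM in TG and 86.0 CPM in WT, a ratio of 7.72 (6.11 to 9.87), with 38.7% of the WT UMIs in 1 cell. Atp1b2, a sodium pump subunit, had 85.5 CPM in TG and 10.3 CPM in WT, a ratio of 8.28 (4.27 to 18.4), with 44.4% of its 9 WT UMIs in 1 cell. Haptoglobin (Hp) had 1518 UMIs in TG and 5 in WT, 80.0% of the WT ones in 1 cell. Hp had 745 CPM in TG and 65.4 CPM in WT in fibroblast-gate cells. Some of these genes were uneven between TG cells as well, since a single TG cell gave 27.7% of the Mgp UMIs and 33.6% of the Areg UMIs there. Mgp encodes an inhibitor of calcification and Areg a ligand of the EGF receptor, and Mgp had 802 UMIs in TG and 4 in WT. Areg had 211 UMIs in TG and 1 in WT, a ratio of 85.5 (15.2 to 3393), and Mfap2, a microfibril gene, 194 UMIs in TG and 3 in WT, a ratio of 26.2 (8.83 to 128).

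The 10 lowest by the same rule were Erfe, H2ac4, Car4, Csf2, H2ac8, Creld2, Fkbp11, Cxcl5, Sec11c and Spcs3. Erfe, erythroferrone, had 5.58 CPM in TG and 129.6 CPM in WT, a ratio of 0.0430 (0.0216 to 0.0782), with 41.6% of the WT UMIs in 1 cell, and Car4, a carbonic anhydrase, 56.2 CPM in TG and 239.8 CPM in WT, a ratio of 0.235 (0.186 to 0.295). Creld2 had 45.1 CPM in TG and 150.3 CPM in WT, a ratio of 0.300 (0.228 to 0.393), Fkbp11 57.2 CPM in TG and 190.4 CPM in WT, a ratio of 0.300 (0.236 to 0.381), Sec11c 40.9 CPM in TG and 123 CPM in WT, a ratio of 0.333 (0.248 to 0.446) and Spcs3 25.1 CPM in TG and 74.6 CPM in WT, a ratio of 0.337 (0.230 to 0.491), and for none of these 4 did 1 WT cell hold over 17.5% of the UMIs. Fkbp11 reached 0.5 times the level of other barcodes in WT members only, at 0.426 (TG) and 1.77 (WT) times. Thinned to 2000 UMIs, Spcs3 had a log2 ratio of 2.21. All WT UMIs of the histone genes H2ac4 and H2ac8 came from 1 WT cell, and reads of these near-identical copies may be split between them, so their direction is uncertain. The granulocyte-macrophage growth factor gene Csf2 had 55.8 CPM in TG and 227 CPM in WT, with 46.7% of its TG UMIs and 39.4% of its WT UMIs in 1 cell.

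**Figure D5:**
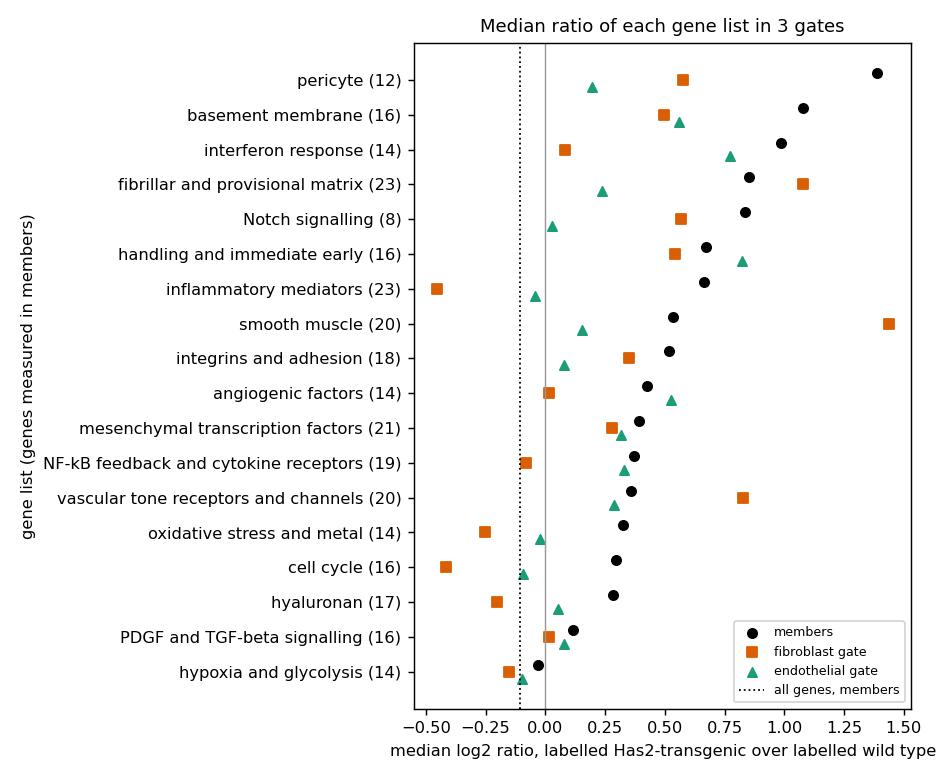
Median log2 ratio, TG over WT, of each of 18 gene lists in members, fibroblast-gate and endothelial-gate cells, with the number of genes measured in members in parentheses and the median of all 9140 genes in members as a dotted line at -0.11. Marker lists of other cell types are not drawn. Of the 18 lists drawn the pericyte and basement membrane lists lie highest in members, and the mediator list lies at 0.66 in members and -0.45 in fibroblast-gate cells.

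Set side by side, the medians of all 18 lists lay above the all-gene median of -0.11 in members. Counts of genes at least 2-fold higher ran from 1 of 19 in the NF-kB list to 9 of 12 in the pericyte list, beside 10.2% of all genes. Marker lists of other cell types had medians of 2.46 for fibroblast markers (8 of 9 measured at least 2-fold higher), of 2.67 for keratinocyte markers (2 of 4), of 1.68 for leukocyte markers (5 of 8) and of 0.67 for endothelial markers (2 of 4). Their part in the other ratios was not tested. The all-gene median was 0.02 in fibroblast-gate cells and 0.02 in endothelial-gate cells.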

How the data were processed

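Gene counts of UMIs per cell barcode were deposited by the authors for each library, made with Cell Ranger 9.0.1 on GRCm39 per the submitters' processing notes, and their whole-number form was checked. No filter, cell type or doublet call by the authors was used. Barcodes with fewer than 200 genes or more than 15% mitochondrial UMIs were left out. Scrublet in scanpy 1.11.5 marked 0 of the TG and 231 of the WT barcodes, too few in the first to count as working, so removing the highest scores (843 TG and 1145 WT barcodes, with 12 TG and 3 WT members) was an alternative only. Members and gene lists were chosen with earlier results of these data known.

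UMIs were summed over members and scaled to CPM. Ratios used a prior count of 0.5 on the log2 scale for genes with at least 20 UMIs over both libraries, leaving out the genes of the rule. With 1 library per genotype no p-value was computed. Poisson, binomial and conditional binomial intervals are exact, at 95%. Comparison gates needed at least 2 UMIs of Pdgfra (fibroblast), 2 of Pecam1 and 1 of Cdh5 (endothelial), or 2 of Ptprc (leukocyte), each with limits on the other gates' genes. Named genes were the 5 rule genes, the members of each list with the largest log2 ratios at 100 UMIs or more with those needed to say what a list did, the 10 largest ratios in each direction (1 of them is not reported here), and the 15 genes most above all other barcodes. Cells with an extreme share of a gene, and a few genes such as Cxcl12 and Il1r1, were named after their values were seen. Scripts ran in Python 3.11.15 with numpy 2.4.6, scipy 1.17.1 and pandas 2.3.3 and were tested on simulated data. Alternatives changed the rule, the cell filters, the scaling, the depth, the UMI minimum and the members included. Subsets of pericyte-leaning and of smooth muscle-leaning members were added after seeing the data.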

Additional observations from a re-analysis of the deposited data

Results flagged for a closer look

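Some results ran in opposite directions in members and in fibroblast-gate cells, and none of these differences was tested. The median log2 ratio was 0.66 in members and -0.45 in fibroblast-gate cells for the mediator list, 0.30 and -0.42 for the cell cycle list, and 0.33 and -0.25 for the oxidative stress list. Among genes, the ratio was 2.60 in members and 0.664 in fibroblast-gate cells for Adamts5, 1.95 and 0.560 for Isg15, and 5.70 and 0.517 for Ptgs2. The reverse held for Erfe, at 0.0430 in members and 2.01 in fibroblast-gate cells, for H2ac4, at 0.218 and 1.84, and for H2ac8, at 0.254 and 1.79. All WT UMIs of H2ac4 and H2ac8 in members came from 1 cell. Without the cell with most UMIs their log2 ratios in members were 4.48 and 4.59. No WT UMI is then left, so these values rest on the prior count and cannot show a direction. In WT members 1 cell also held 86.7% of the Ptgs2 UMIs, 41.2% of the Adamts5 UMIs and 36.0% of the Isg15 UMIs.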

How the results depend on the processing

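No paired analysis was possible because each genotype is 1 library. The ratio of shares lay between 3.16 and 4.72 under 6 alternatives. Genes at least 2-fold higher numbered 934, against 367 after thinning to 2000 UMIs and 321 at 100 UMIs or more, and genes at least 2-fold lower 506, against 179, 113, and 335 with median-ratio scaling, where fewer genes were measured in the first 2 settings (3024 and 4480 of 9140). The matrix median was 0.46 thinned. The smooth muscle median was 0.95 in smooth muscle-leaning and 0.93 in pericyte-leaning members. The mediator median was 0.77 with median-ratio scaling, 0.023 thinned, 0.95 without each gene's top cell, 0.96 in pericyte-leaning and -0.0069 in smooth muscle-leaning members; the cause was not tested. Log2 ratios whose sign reversed, all with the prior count added, were, in pericyte-leaning members, -1.0 for Cnn1, 3.08 for Csf2, 3.85 for H2ac4, 3.92 for H2ac8 and -0.27 for Ltbp1. In smooth muscle-leaning members they were 0.14 for Cald1, 1.49 for Csf3, -0.32 for H2-M9, 1.96 for H2ac4, 2.69 for H2ac8 and -0.84 for Ptgs2. Without the top cell they were 0.12 for Csf3, 4.48 for H2ac4, 4.59 for H2ac8 and -0.18 for Mfap5. With 0 UMIs of Pdgfra, Pecam1 and Ptprc they were 5.36 for H2ac4, 5.5 for H2ac8 and -0.56 for Mfap5. Some of these values rest on the prior count. WT members held 0 UMIs of H2ac4 and H2ac8 in either leaning class, and none without the top cell. Pericyte-leaning cells held 1 TG UMI and 0 WT UMIs of Cnn1, so its sign there is no reversal of counts. For Csf2 they held 25 TG UMIs and 0 WT UMIs. Mean per-cell CPM gave 0.19 for Csf3, -0.30 for H2-M9, -0.061 for Ltbp1 and -0.064 for Rgs4. Thinning gave -0.65 for H2-M9, -0.59 for Mef2c, 2.21 for Spcs3 and -0.011 for the hyaluronan list. At least 2 markers gave -0.33 for Cdh13, 0.37 for Smtn and -0.32 for the leukocyte list, at least 4 gave 3.01 for Csf3, median-ratio scaling 0.022 for Cald1, and leaving out fibroblast-rich members -0.063 for Mfap5. Of 1718 alternative values 1289 moved little, 396 moved and 33 reversed.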
